A study of Homo sapiens with 4 samples.

Results

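The immunoproteasome and peptide loading genes were measured by RNA-seq in glioblastoma cells with and without knockdown of *FLI1*, which encodes a transcription factor of the ETS family. The group was set by gene name and held 10 of the 46660 gene identifiers in the table. It was chosen with earlier results of these data known, so its shares beside those of all genes are descriptive. It comprised the immunoproteasome catalytic subunits *PSMB8*, *PSMB9* and *PSMB10*, the proteasome activator subunits *PSME1* and *PSME2*, the peptide transporter subunits *TAP1* and *TAP2*, the loading chaperone tapasin (*TAPBP*) and the trimming peptidases *ERAP1* and *ERAP2*. Both cell lines used, U87MG and U251MG, were established from human glioblastoma. For each line, 1 library came from cells infected with lentivirus carrying 2 shRNAs against *FLI1* (shFLI1), and 1 from cells with the empty pGreen vector, which the sample titles call shControl. The paper describes puromycin selection and mixed stable cells for its PCR and western blot work. For RNA-seq it names only knockdown and control cells, so selection and pooling of the sequenced cells are not stated there.

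The proteasome cuts cellular proteins into peptides. Under interferon-γ, PSMB8, PSMB9 and PSMB10 are known to be built in instead of the catalytic subunits PSMB5, PSMB6 and PSMB7 of the standard core. This changes the peptides made. The TAP1 and TAP2 proteins together carry these peptides into the endoplasmic reticulum, where ERAP1 and ERAP2 shorten them and tapasin holds empty class I molecules at the transporter until a peptide is bound. The loaded class I molecule then shows the peptide at the cell surface to CD8 T cells, and loss of these steps is a known route by which tumours become less visible to T cells.

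The libraries held between 12229780 and 28891055 summed counts, and the shFLI1 library was the deeper in both cell lines, 1.74 times its control in U87MG and 1.60 times in U251MG. Levels are given as CPM, the usual count unit per library size, here with edgeR's TMM scaling factors, and log2 fold changes are shFLI1 minus control on that scale with a prior count of 2. *FLI1* itself was at 9.34 CPM in U87MG control, 2.34 in U87MG shFLI1, 12.1 in U251MG control and 3.71 in U251MG shFLI1, lower with the shRNAs in both cell lines. Of 8 glial and glioblastoma markers, *VIM*, *NES*, *SOX2*, *CD44*, *EGFR* and *GFAP* had at least 364 counts in every library, while *S100B* did not exceed 11 counts and *OLIG2* did not exceed 2. *GFAP*, an astrocyte filament gene, rose in both cell lines, by 1.32 and 2.19 on the log2 scale. Leukocytes carry the immunoproteasome constitutively, and 6 leukocyte markers summed to between 16 and 76 counts in a library, with the common leukocyte antigen gene *PTPRC* at 0, 0, 1 and 5 counts.

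Members of the group are known to be switched on through the interferon-stimulated response element, a DNA motif read by interferon-activated transcription factors, so the stretches that hold it are shown here for comparison with the changes given further on. Sequences are from RefSeq (GRCh38.p14), each read 5′ to 3′ on the strand of its gene, and the capitals mark matches to GAAANNGAAA or, for the other strand, TTTCNNTTTC, overlapping matches being joined. The window searched ran from 250 bases before to 50 bases after each annotated transcript start. *TAP1* and *TAPBP* held an overlapping pair of matches and the other genes shown held 1.
PSMB8, chr6:32844023-32844071, minus strand: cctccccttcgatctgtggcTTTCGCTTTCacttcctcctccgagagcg
TAP1, chr6:32853803-32853858, minus strand: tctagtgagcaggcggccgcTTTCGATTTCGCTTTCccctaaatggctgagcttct
TAP2, chr6:32838768-32838817, minus strand: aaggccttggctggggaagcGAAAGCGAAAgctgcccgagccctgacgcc
PSME2, chr14:24146609-24146658, minus strand: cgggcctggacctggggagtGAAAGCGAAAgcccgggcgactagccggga
PSME1, chr14:24136179-24136218, plus strand: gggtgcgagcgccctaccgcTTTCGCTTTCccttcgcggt
PSMB10, chr16:67936842-67936891, minus strand: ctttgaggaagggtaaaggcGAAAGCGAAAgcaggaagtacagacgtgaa
TAPBP, chr6:33314063-33314118, minus strand: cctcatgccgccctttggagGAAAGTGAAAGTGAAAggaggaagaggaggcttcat
ERAP1, chr5:96807921-96807963, minus strand: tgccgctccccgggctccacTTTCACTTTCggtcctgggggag
ERAP2, chr5:96876450-96876499, plus strand: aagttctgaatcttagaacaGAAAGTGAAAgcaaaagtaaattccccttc

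The element was present in 9 of the 10 genes, counting any annotated start, and in 9 of their 14 windows, against 3.57% of all 35116 windows and 4.38% of 27305 genes. For *PSMB8*, *ERAP1* and *ERAP2* the match was only at the downstream annotated start, and the window of the upstream start held none. For *TAP1* it was only at the upstream start. *PSMB9* was the gene without a match in its own window. It is transcribed away from *TAP1*, with 487 bases between the starts of the genes, and the joined pair of matches in that stretch lay 119 bases from the *TAP1* start and 354 bases from the *PSMB9* start. The ETS motif was searched only as CCGGAA (or TTCCGG), and shorter or other forms of it were not counted. That form was found in 1 of the 10 genes, at the downstream start of *TAP1*, against 20.1% of all genes. The gamma-activated sequence TTCNNNGAA was found in *PSMB8* and *TAP1*, 2 of 10, against 9.38%. The GC box GGGCGG (or CCGCCC) was in 7 of 10 genes and 9 of 14 windows, against 48.3% of all genes and 44.95% of all windows. A match describes the letters in the window and is not evidence of binding, and a window without one says nothing of the factor.

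**Figure D1:**
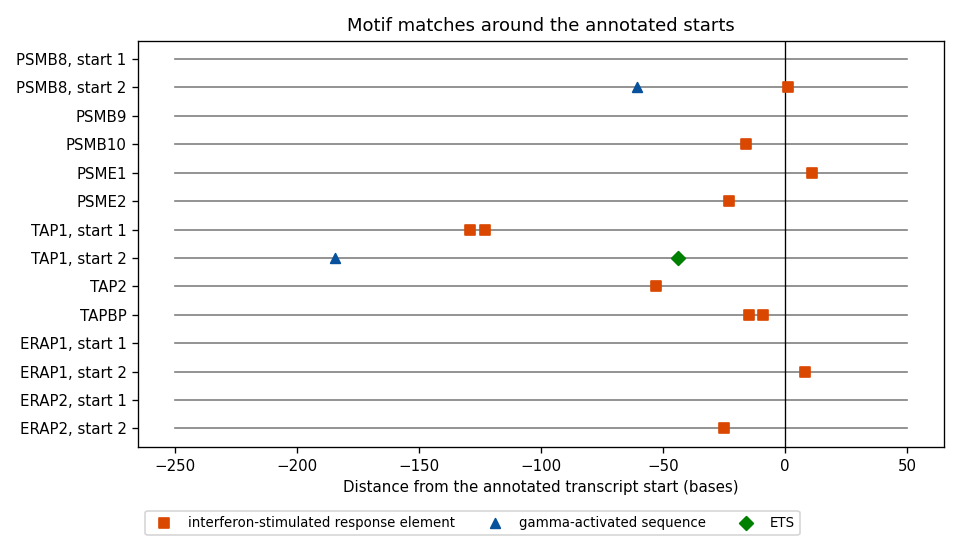
Positions of motif matches (symbols) in the 14 windows of the 10 genes (horizontal lines), in bases from the annotated transcript start at 0. The interferon-stimulated response element occurs in 9 windows, the gamma-activated sequence in 2 and the ETS form CCGGAA in 1, and GC boxes are not drawn.

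The first comparison asked which of these genes differed between shFLI1 and control cells of the same cell line. All 10 were lower in the shFLI1 library in both cell lines, as were 7707 of 17355 tested genes in U87MG and 8302 of 18222 in U251MG. A call required a fold difference above 2 and p below 0.05 in an exact binomial test of the reads (two-sided), for any gene reaching 10 counts in either library of the line. By that rule 3 of the 10 were lower in U87MG (*PSMB8*, *PSMB9* and *TAP1*), against 4.33% of the 17355 genes tested, and 6 of the 10 in U251MG (the same genes with *TAP2*, *PSME2* and *ERAP2*), against 4.06% of 18222. The 3 genes called in both cell lines compare with 1.45% of the 16384 genes tested in both. None of the 10 was called higher, beside 1299 of all 17355 genes in U87MG and 809 of 18222 in U251MG. The median log2 fold change of the group was -0.77 in U87MG and -1.29 in U251MG, where the median of all tested genes was 0.06 and 0.04. With 1 library per arm these differences have no replicate check, the read test compares 2 libraries and not conditions, and intervals cover counting error only.

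**Figure D2:**
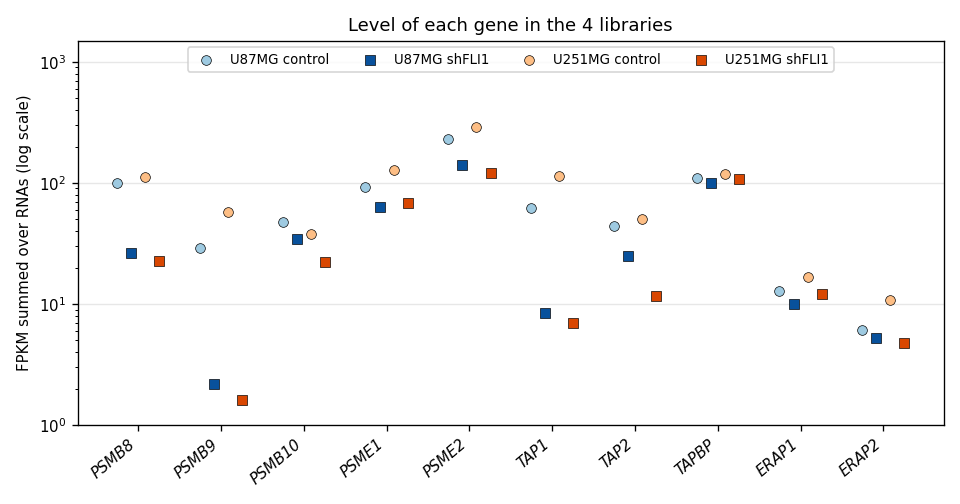
FPKM of each gene (log axis) in the 4 libraries, 1 point per library, circles for control and squares for shFLI1. Each shFLI1 square lies below the control circle of its cell line, and the gap is widest for *PSMB9* and *TAP1*.

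Among the immunoproteasome catalytic subunits, *PSMB9* and *PSMB8* fell in both cell lines, and *PSMB10* moved less. *PSMB9*, the subunit that takes the place of PSMB6, was at 23.8 CPM in U87MG control, 1.62 in U87MG shFLI1, 44.4 in U251MG control and 1.17 in U251MG shFLI1. These levels rest on 272, 36, 791 and 35 counts. After knockdown 6.81% of the U87MG control level and 2.63% of the U251MG control level remained. The cell line with the higher control level had the lower level after knockdown, but that order rests on 36 and 35 counts and was not tested. Its log2 fold change was -3.80 (95% counting interval -4.42 to -3.37) in U87MG and -5.13 (-5.78 to -4.76) in U251MG, the 31st lowest of 17355 tested genes and the 8th lowest of 18222.

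*PSMB8*, whose product carries the chymotrypsin-like site in place of PSMB5, was at 100.4, 23.3, 104.7 and 20.5 CPM in U87MG control, U87MG shFLI1, U251MG control and U251MG shFLI1. The control levels of the cell lines were close, 1.04 times higher in U251MG, and so were the levels after knockdown. It fell 4.30-fold in U87MG (log2 fold change -2.10, -2.26 to -1.95) and 5.11-fold in U251MG (-2.35, -2.49 to -2.22). The more abundant of its 2 annotated transcripts carried 60.4%, 69.3%, 62.4% and 60.7% of its counts in the same order of libraries, so both transcripts were lower after knockdown. *PSMB10*, which takes the place of PSMB7, was at 36.7, 23.9, 27.2 and 15.3 CPM, highest in U87MG control and lowest in U251MG shFLI1. Its log2 fold change was -0.61 (-0.80 to -0.43) in U87MG and -0.83 (-1.02 to -0.64) in U251MG, under 2-fold in both. *PSMB10* is on chromosome 16, apart from *PSMB8* and *PSMB9* on chromosome 6.

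**Figure D3:**
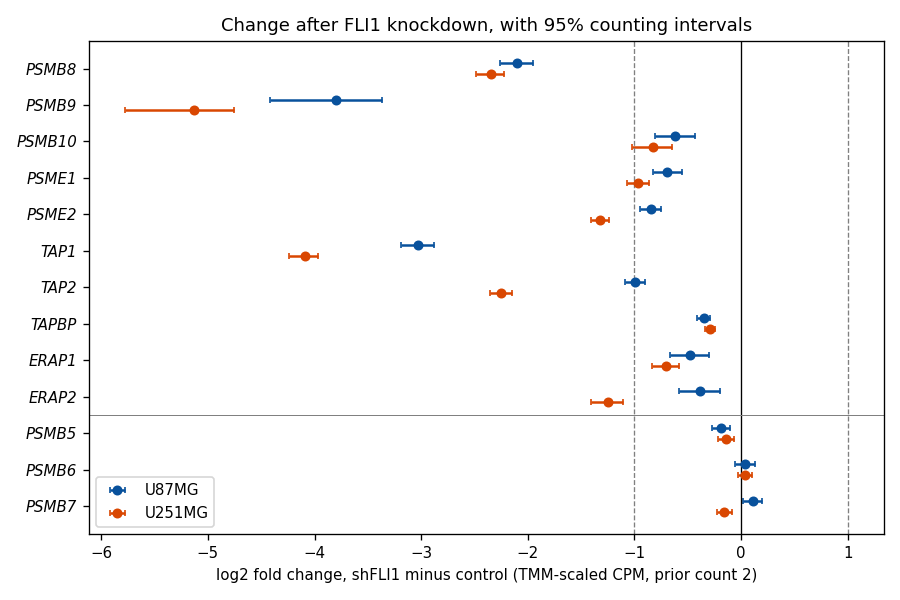
Log2 fold change of each gene (shFLI1 minus control, TMM-scaled CPM) in U87MG and U251MG with 95% counting intervals, and below the line the standard catalytic subunits. The dashed lines mark 2-fold, and the changes run from -5.13 for *PSMB9* in U251MG to 0.11 for *PSMB7* in U87MG.

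The standard catalytic subunits did not pass the 2-fold rule in either cell line. The log2 fold change was -0.19 in U87MG and -0.14 in U251MG for *PSMB5*, 0.04 in both for *PSMB6*, and 0.11 and -0.16 for *PSMB7*. Each immunoproteasome subunit was therefore also set against the standard subunit it replaces, a ratio within the library that does not depend on scaling between libraries. *PSMB8* made up 34.2% of the summed FPKM (fragments per kilobase of transcript, the authors' length-corrected unit) of *PSMB8* and *PSMB5* in U87MG control and 12.4% in U87MG shFLI1, and 38.0% and 11.7% in U251MG. *PSMB9* made up 12.0% of the *PSMB9* and *PSMB6* sum in U87MG control and 0.906% in U87MG shFLI1, and 18.1% and 0.560% in U251MG. *PSMB10* made up 21.5% and 14.2% of the *PSMB10* and *PSMB7* sum in U87MG, and 14.7% and 9.84% in U251MG. In RNA, the standard subunit was the more abundant of each pair in all 4 libraries, and the immunoproteasome share was lower after knockdown for every pair.

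On the log2 scale the count ratio to the standard subunit changed by -1.92 (-2.09 to -1.74) in U87MG and -2.21 (-2.36 to -2.06) in U251MG for *PSMB8*. The change was -3.91 (-4.46 to -3.40) and -5.28 (-5.82 to -4.79) for *PSMB9*. It was -0.72 (-0.93 to -0.52) and -0.67 (-0.87 to -0.47) for *PSMB10*. None of these intervals overlapped between the 3 catalytic subunits of the immunoproteasome in either cell line. They cover counting error only, so with 1 library per arm the differences between subunits have no replicate check.

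**Figure D4:**
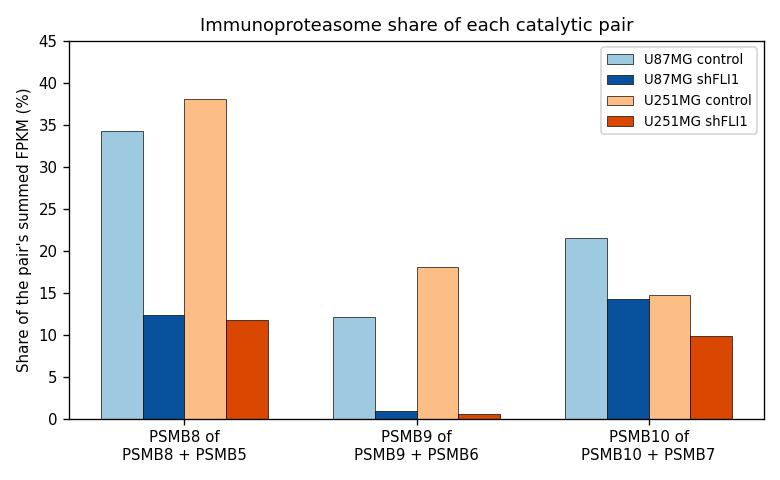
Share of each immunoproteasome subunit in the summed FPKM of itself and the standard subunit it replaces, in percent, 1 bar per library. The shFLI1 bars are lower than the control bar of the same cell line in all 3 pairs, down to 0.560% for *PSMB9* in U251MG.

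*PSME1* and *PSME2* encode the alpha and beta subunits of the PA28 cap, which opens the proteasome core. *PSME2* was at 133 CPM in U87MG control, 73.9 in U87MG shFLI1, 158 in U251MG control and 63.1 in U251MG shFLI1, with a log2 fold change of -0.85 (-0.95 to -0.75) in U87MG and -1.33 (-1.41 to -1.24) in U251MG. *PSME1* was at 70.7, 43.7, 91.4 and 46.8 CPM, with -0.69 (-0.83 to -0.56) and -0.96 (-1.07 to -0.86). For both genes the 2 control libraries lay above the 2 shFLI1 libraries, and *PSME2* in U251MG was the 1 value past 2-fold. The FPKM ratio of *PSME1* to *PSME2* was 0.404 and 0.456 in U87MG control and shFLI1 and 0.439 and 0.567 in U251MG. The counting intervals of the subunits overlapped in U87MG and did not in U251MG, where *PSME2* had the larger change. They are neighbours on chromosome 14, at 24136194 to 24138962 and 24143365 to 24146610.

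The subunits of the peptide transporter differed from each other. *TAP1* was at 161 CPM in U87MG control, 19.6 in U87MG shFLI1, 279.7 in U251MG control and 16.3 in U251MG shFLI1, from 1844, 437, 4986 and 488 counts. The control libraries differed by 1.74 times and the shFLI1 libraries were close to each other. It fell 8.20-fold in U87MG (log2 fold change -3.03, -3.19 to -2.88) and 17.2-fold in U251MG (-4.09, -4.24 to -3.97). *TAP2* was at 150.3, 75.4, 173 and 36.4 CPM, and its change was -0.99 (-1.09 to -0.90) in U87MG, just under the 2-fold rule, and -2.25 (-2.35 to -2.15) in U251MG, where it fell 4.76-fold. The FPKM of *TAP1* was 1.43 times that of *TAP2* in U87MG control, 0.339 times in U87MG shFLI1, 2.26 times in U251MG control and 0.600 times in U251MG shFLI1. *TAP1* was thus the more abundant RNA of the pair in both control libraries and the less abundant in both shFLI1 libraries.

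Tapasin (*TAPBP*), by contrast, was the member nearest to its control level by summed counts. Its CPM was 289.5 and 227 in control and shFLI1 cells of U87MG, and 318 and 259.8 in those of U251MG. The log2 fold changes were -0.35 (-0.41 to -0.29) and -0.29 (-0.34 to -0.24). Its window, like that of *TAP1* printed above, held an overlapping pair of response element matches. The pairs lay in opposite orientations, with the first base at -20 from the start for *TAPBP* and -134 for *TAP1*. The part of the element in the change of either gene was not tested. An alternative took the most abundant listed RNA of each gene, which can be 1 of several copies of a transcript that share its reads. On that measure the change of *TAPBP* was -0.72 in U87MG and -0.15 in U251MG. In U87MG this was larger than for *ERAP1* (-0.19), *ERAP2* (-0.52), *PSMB10* (-0.59) and *PSME1* (-0.68). Summed over its 5 copies, the main *TAPBP* transcript held 2439 and 3635 counts in U87MG control and shFLI1, and 4598 and 6025 in U251MG. These were 73.6%, 72.0%, 81.1% and 77.4% of the gene's counts.

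By FPKM the trimming peptidases were the least abundant members in the control libraries. *ERAP1* was at 37.5, 26.8, 53.3 and 32.6 CPM in U87MG control, U87MG shFLI1, U251MG control and U251MG shFLI1, a log2 fold change of -0.48 (-0.67 to -0.30) in U87MG and -0.71 (-0.84 to -0.58) in U251MG. *ERAP2*, a related aminopeptidase with other cleavage preferences, was at 31.8, 24.3, 49.98 and 20.9 CPM, a change of -0.39 (-0.58 to -0.19) and -1.25 (-1.40 to -1.11). *ERAP2* passed 2-fold in U251MG and *ERAP1* in neither cell line. The genes lie on opposite strands of chromosome 5 and their annotated spans overlap by 43733 bases. The overlap takes in the whole annotated span of *ERAP2*, 96875984 to 96919716, while the *ERAP1* starts searched above, 96814145 and 96807945, lie outside it. Use of strand in the counting is not given in the sources used here, and how far reads were shared between the genes was not tested. *ERAP1* also overlaps *CAST* on the opposite strand by 13871 bases, and *CAST* was the more abundant gene, with 2752, 4845, 3684 and 7624 counts against 429, 596, 950 and 977 for *ERAP1*.

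Ranked by FPKM, the group had a different order after knockdown. *PSME2* was the most abundant RNA in every library, at 229.6, 139.8, 290.2 and 121 FPKM. *TAP1* stood 5th of 10 in U87MG control and 4th in U251MG control (62.5 and 114 FPKM) and 8th in both shFLI1 libraries (8.44 and 6.97). *PSMB9* stood 8th and 6th in the controls (29.2 and 58.0 FPKM) and last in both shFLI1 libraries (2.20 and 1.60). *TAPBP*, at 111, 99.0, 118 and 108 FPKM, was 2nd or 3rd in every library.

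The 2 cell lines were next used as replicates of the knockdown, in edgeR's quasi-likelihood test with the cell line as a block. Here 7 of the 10 genes were lower after knockdown, against 2.14% of the 16649 genes tested, and the median log2 fold change of the group was -0.98 where that of all genes was 0.01. By this test, with Benjamini-Hochberg adjustment over all genes, the adjusted p was 0.000257 for *PSMB8* (log2 fold change -2.25), 0.000278 for *PSMB9* (-4.60) and 0.000278 for *TAP1* (-3.59). It was 0.00888 for *PSME2* (-1.10), 0.0142 for *TAP2* (-1.64), 0.0190 for *PSME1* (-0.85) and 0.0425 for *PSMB10* (-0.74). In the same edgeR test *ERAP1* (-0.61, adjusted p = 0.0683), *ERAP2* (-0.85, adjusted p = 0.0733) and *TAPBP* (-0.34, adjusted p = 0.313) did not pass. DESeq2 called 6 of the 10 lower, beside 312 of the 16649 genes tested, leaving out *PSMB10* at an adjusted p of 0.136. The fit had 1 residual degree of freedom, and the calls were lost without the cell line block, with limma on log2(FPKM + 1) and with the most abundant RNA of each gene in place of the sum. In each of these fits 0 of the 10 passed and 0 of all genes tested were called, while 8, 7 and 8 of the 10 were lower at an unadjusted p under 0.05. The share of all genes at that unadjusted p was not worked out, so these counts have no background to be read against.

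The change was larger in U251MG than in U87MG for 9 of the 10 genes, all but *TAPBP*. Among all genes tested in both cell lines 52.4% had the lower log2 fold change in U251MG, and among the 237 called lower in both 63.7% did. The difference between cell lines was -1.34 on the log2 scale for *PSMB9*, -1.26 for *TAP2*, -1.06 for *TAP1* and -0.86 for *ERAP2*, and between -0.48 and 0.06 for the other 6. Control levels were higher in U251MG than in U87MG for 9 of the 10 genes, *PSMB10* being the exception, and levels after knockdown were lower in U251MG for 7 of the 10. For *FLI1* itself the log2 fold change was -1.95 (-2.51 to -1.51) in U87MG and -1.68 (-2.05 to -1.37) in U251MG, with overlapping intervals. The difference between cell lines was not tested, since each arm of a line had 1 library.

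The 3 genes called lower in both cell lines lie close together on chromosome 6, with *TAP2* beside them. On GRCh38, *TAP2* (32821831 to 32838739), *PSMB8* (32840717 to 32844679), *TAP1* (32845209 to 32853704) and *PSMB9* (32854192 to 32859851) lie within 38.0 kb of the class II region of the major histocompatibility complex, and *TAPBP* lies on the same chromosome at 33299694 to 33314078. *PSMB9* and *TAP1*, which share an upstream stretch, both fell, and *PSMB9* by more: its FPKM ratio to *TAP1* was 0.467 and 0.261 in U87MG control and shFLI1, and 0.508 and 0.230 in U251MG. Their counting intervals did not overlap in either cell line. An antisense RNA, *PSMB8-AS1*, overlaps *PSMB8* by 594 bases and *TAP1* by 1292 bases and had 49, 11, 117 and 29 counts, low beside those of both genes. Several members are listed in the table more than once, under numbered copies of a transcript (14 of 16 RNAs for *PSMB8*, 9 of 10 for *TAP1*). The gene sums were within 0.05 of a whole number for 38 of 40 sums, so reads had been divided among copies and the sums counted each once.

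Other genes of the pathway were then compared with the group. Of all 17355 genes tested in U87MG, 751 were called lower and 1299 higher. Of 18222 in U251MG, 739 were called lower and 809 higher. In edgeR's shared test 356 of 16649 were lower and 153 higher, and in DESeq2 312 and 93. Beside these shares, 0 calls in a short list is not a result about that list. None of the 11 shared subunits of the proteasome core was called lower or higher in either cell line, and 0 passed in edgeR's shared test (1 lower at an unadjusted p under 0.05) or in DESeq2. Their median log2 fold change was -0.10 in U87MG and -0.04 in U251MG. The 8 assembly factors and other activators gave 0 calls as well (1 higher at an unadjusted p under 0.05 in edgeR, 0 in DESeq2), with medians of -0.10 and -0.19. Of the other loading genes, which include the general chaperones of the endoplasmic reticulum, 0 of 5 tested were called in U87MG and 1 of 6 in U251MG, a gene with at most 12 counts in a library. Of 8 other peptidases, *LAP3*, a cytosolic leucine aminopeptidase, was called lower in both cell lines, with log2 fold changes of -1.001 and -1.51. The remaining 7 were not called, and the median of the 8 was 0.08 and 0.16.

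All 6 genes of class I heavy chains and β2-microglobulin, the end products that the pathway loads, were called lower in both cell lines. Their log2 fold changes in U87MG and U251MG were -4.50 and -5.98 for *HLA-B*, -3.29 and -4.30 for *HLA-F* and -2.57 and -3.39 for *HLA-C*. HLA genes are near-identical to each other, and reads may be split between them.

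Of 10 regulators of the pathway, 3 were called lower in U87MG, 5 in U251MG and 5 in edgeR's shared test, and 0 were called higher. *NLRC5*, the coactivator of class I promoters, was at 68.9, 12.6, 106.5 and 17.7 CPM in U87MG control, U87MG shFLI1, U251MG control and U251MG shFLI1, with log2 fold changes of -2.44 and -2.58. *STAT2* changed by -1.36 and -1.51 and *IRF9*, its DNA-binding partner, by -0.96 and -1.31. *IRF1*, named after its values were seen, changed by -0.88 and -1.80. *CIITA*, the coactivator of class II genes, did not exceed 3.28 CPM in any library. Transcripts of interferon genes themselves were few, and the 3 of 9 genes with values summed to 8, 16, 8 and 6 counts in a library. The part of these regulators in the changes of the peptide loading genes was not tested.

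**Figure D5:**
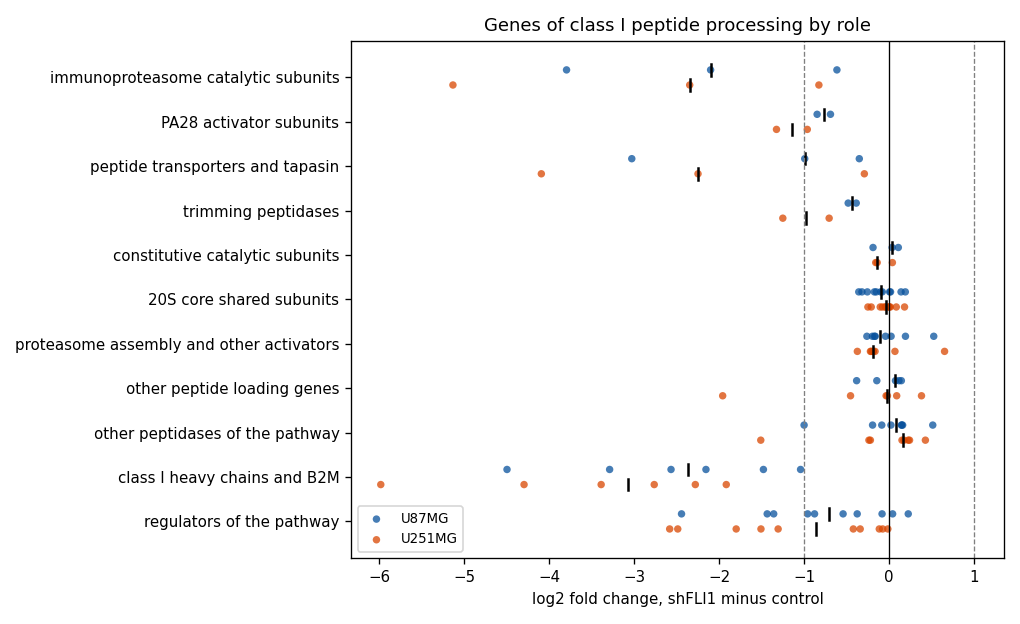
Log2 fold change (shFLI1 minus control) of every tested gene of the pathway lists, 1 point per gene and cell line, with a black bar at each list's median. The shared core subunits have medians of -0.10 and -0.04, while the class I genes and the immunoproteasome catalytic subunits have medians below -2.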

How the data were processed

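Poly-T selected RNA of 4 libraries was sequenced by the authors, aligned to GRCh38 with HISAT2 and measured with StringTie. The deposited table gives, per RNA, an expected count that need not be whole and the authors' FPKM, and the tool behind the counts is not given in the sources used here. Circular RNAs (31346) and 10 further value columns were not used. Here the counts of 185042 linear RNAs were summed over gene identifiers and rounded, and FPKM summed likewise. The analysis used R 4.3.3, edgeR 4.0.16 (TMM, read test, quasi-likelihood test, prior count 2), DESeq2 1.42.0 and limma 3.58.1, after a check on artificial counts. Intervals are 95% Clopper-Pearson intervals of read proportions, and for ratios exact conditional intervals. PCR reads are not independent molecules. The cell line pairs the libraries of the shared fit, since both arms come from the same line. Gene names and positions came from RefSeq (GRCh38.p14, whose chromosome coordinates are those of the authors' patch p13). Members and gene lists were chosen with earlier results of these data known. All 10 members are named, with *FLI1*, the standard subunits and, of each other list, at most 4 genes called in both cell lines or in the shared test, ordered by the smaller change; some genes within this rule are not reported here. Alternatives covered scaling, filter, fold, prior count, depth, unit, block and summing. The most abundant RNA of a gene was the listed RNA with the highest mean count, which can be 1 of several copies of a transcript.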

Additional observations from a re-analysis of the deposited data

Results flagged for a closer look

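*PSMB7*, the standard subunit that PSMB10 replaces, had log2 fold changes of opposite sign in the cell lines, 0.11 in U87MG and -0.16 in U251MG. The difference between the cell lines was not tested, and neither value passed the 2-fold rule.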

How the results depend on the processing

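No member changed direction under any alternative: of 160 single-line values, 123 stayed inside the counting interval of the reported value and 37 left it with the same sign. The counts of members called lower stayed within 1.5 times of those reported except with a 1.5-fold threshold, which gave 7 in U87MG and 7 in both cell lines. The share of all genes at the 1.5-fold threshold was not worked out. The group's median in U87MG became -0.61 with total counts, -0.62 with log2(FPKM + 1) and -0.63 with log2(FPKM + 0.1), and in U251MG -1.15 with log2(FPKM + 1). Total counts also moved the median of all genes in U87MG from 0.06 to 0.22. The change of the *PSMB8* to *PSMB5* ratio in U87MG was -1.70 with the most abundant RNA of each gene. In the shared test, the alternatives that kept calls gave 5 to 9 members. Total counts gave the 5, beside 199 of 16649 genes, and a filter of 1 count gave the 9, beside 736 of 43576. The fit without the pairing by cell line (no block) gave 0 members, the most abundant RNA of each gene gave 0 and limma on FPKM gave 0. The cause was not tested. The largest edgeR adjusted p over all alternatives was 0.424 for *PSMB8*, *PSMB9* and *TAP1*, in the fit without the block. There it was 0.6785 for *PSME2*, 0.795 for *PSME1*, 0.9475 for *TAP2* and higher still for *PSMB10*. With the block kept, the largest edgeR values were 0.167 for *PSMB8*, 0.199 for *PSMB9* and 0.163 for *TAP1*. They were between 0.302 and 0.370 for *PSME2*, *PSME1*, *TAP2* and *PSMB10*. No library could be left out, since 1 library per arm and cell line leaves the shared fit no residual degrees of freedom. Counts of 35 and 36 for *PSMB9* after knockdown limit the precision of its change.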
